A study of Mus musculus with 4 samples.

Results

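Tetraspanins are small proteins that cross the membrane several times and gather integrins, immunoglobulin-superfamily proteins and receptors into shared membrane domains. On leukocytes they bear on adhesion, migration, antigen receptor signalling and vesicle traffic, and several of them are used as markers of exosomes. The 8 genes described here, Cd9, Cd37, Cd53, Cd63, Cd81, Cd82, Cd151 and Tspan32, were taken by name from the 55487 genes of a count table of mouse liver myeloid cells. The rule used no measured value, but the genes were picked with earlier results of these data known. All 8 were found in the table, and all 8 passed the filter on low counts that left 13496 genes for testing.

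The libraries came from LysM-Cre IL10R fl/fl mice (2 libraries) and LysM-Cre IL10R wt/wt mice (2 libraries), so both groups carried LysM-Cre, the Cre recombinase placed in the lysozyme 2 locus that is active in macrophages, monocytes and granulocytes. In fl/fl mice Cre can remove the loxP-flanked part of an interleukin-10 receptor gene, whose chain the labels do not name. Myeloid cells were sorted from perfused, collagenase-digested livers as CD45+ CD3- CD11c- CD11b+, and polyadenylated RNA was sequenced. The labels give neither the age nor the sex of the mice, nor whether libraries of 1 genotype were made from different animals. The p-values measure the spread between these samples, which for wt/wt may be technical.

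Total counts were 17750343 and 17154042 in fl/fl libraries 1 and 2, and 22694136 and 26441014 in wt/wt libraries 1 and 2. Il10ra, the ligand-binding chain of the receptor, stood at 69.3 and 14.8 CPM (counts brought to a common library size with TMM scaling) in the fl/fl libraries, against 1111 and 993 CPM in the wt/wt libraries. Of the genes of the sort, Ptprc (CD45) and Itgam (CD11b) were at 368 CPM or more in every library, Cd3e was at 0.0737 CPM or less, and Itgax (CD11c) was at 24.6 and 47.1 CPM in fl/fl, against 158 and 134 CPM in wt/wt. Xist, the X-inactivation RNA, was counted 4298 times in fl/fl 2 and in no other library, while 4 Y-linked genes summed to 3455 counts in fl/fl 1, 1 in fl/fl 2 and at least 5207 in wt/wt, so that the fl/fl libraries were of different sex and not from the same animal. The fl/fl libraries lay apart on the second principal component (44.6 for fl/fl 1, −49.1 for fl/fl 2), which held 23.9% of the variance.

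The windows around transcription starts are shown first, to set the letters of the leukocyte-restricted Cd53 and Cd37 beside those of the widely expressed Cd63 and Cd81. RefSeq windows on GRCm38.p6, each with 250 bases before and 50 after a start, were available for the 8 genes (12 windows; 4 for Cd82, 2 for Cd151 and 1 for each other gene). Capitals mark GGGCGG (the GC box) and GAGGAAGT (the kind of site that the myeloid and B cell factor PU.1 binds), each searched on both strands, so that GAGGAAGT on the reverse strand reads ACTTCCTC. The windows are chr10:128909095-128909394 on the plus strand for Cd63, chr3:106790100-106790399 on the minus strand for Cd53, chr7:45238790-45239089 on the minus strand for Cd37 and chr7:143052500-143052799 on the plus strand for Cd81, each written 5′ to 3′ along its gene.
Cd63: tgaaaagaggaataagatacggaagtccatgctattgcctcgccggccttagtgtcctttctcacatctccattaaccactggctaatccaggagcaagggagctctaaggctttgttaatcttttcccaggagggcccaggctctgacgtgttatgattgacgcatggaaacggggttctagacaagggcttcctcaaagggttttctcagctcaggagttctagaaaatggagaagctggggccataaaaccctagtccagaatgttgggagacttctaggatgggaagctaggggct
Cd53: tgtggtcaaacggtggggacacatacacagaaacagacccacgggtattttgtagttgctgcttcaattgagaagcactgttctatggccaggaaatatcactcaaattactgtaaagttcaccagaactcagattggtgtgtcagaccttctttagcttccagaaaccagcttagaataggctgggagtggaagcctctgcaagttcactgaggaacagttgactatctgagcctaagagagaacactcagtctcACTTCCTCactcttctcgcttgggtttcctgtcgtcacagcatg
Cd37: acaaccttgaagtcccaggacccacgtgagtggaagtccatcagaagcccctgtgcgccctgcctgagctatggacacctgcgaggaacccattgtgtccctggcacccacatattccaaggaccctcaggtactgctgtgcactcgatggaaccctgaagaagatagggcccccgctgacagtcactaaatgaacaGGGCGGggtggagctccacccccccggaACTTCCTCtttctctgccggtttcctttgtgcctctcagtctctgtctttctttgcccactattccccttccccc
Cd81: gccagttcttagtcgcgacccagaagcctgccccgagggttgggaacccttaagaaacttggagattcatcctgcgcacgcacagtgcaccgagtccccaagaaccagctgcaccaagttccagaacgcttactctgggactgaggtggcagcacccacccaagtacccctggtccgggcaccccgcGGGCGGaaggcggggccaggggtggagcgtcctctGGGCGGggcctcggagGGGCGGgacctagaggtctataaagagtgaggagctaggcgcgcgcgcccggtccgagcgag

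The Cd53 window held GAGGAAGT from base 7 to base 14 after the start, and the Cd37 window held it from base −25 to base −18 before it. Both genes are transcribed mainly in leukocytes. Among all 32851 RefSeq windows of this length, 3.2% held GAGGAAGT; Cd82 also held it, in 1 of its windows. The GC box stood in windows of Cd9, Cd37, Cd81, Cd82 and Cd151, with 3 copies in Cd81, and in 35.7% of all windows. The Cd63 window held neither, and the start it is drawn from is 1 of several that the annotation gives for this gene. Of the other 10 motifs searched, TATAAA (13.6% of all windows) was in Cd81, and the STAT palindrome TTCNNNGAA (8.3% of all windows) and TTNNGCAA, the C/EBP pattern (10.8%), were each in Cd82 alone among the 8 genes. The short ETS cores GAGGAA (28.3%) and GGAAGT (23.8%), which overlap GAGGAAGT, were in 5 and 4 of the genes, CCAAT (37.4%) in Cd53 and Cd82, and CACGTG (7.15%) in Cd37. TCACGTGA (0.974%), TTCCNNGAA (4.81%, overlapping TTCNNNGAA) and TGACTCA (5.2%) were in 0, 1 and 0 of the genes. The motifs were chosen with the members' results known, and a match is a description of these letters.

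Cd63 rose 3.28-fold in fl/fl, and the other 7 members did not pass an adjusted p of 0.05. By edgeR's quasi-likelihood test, 1 of the 8 was higher and 0 were lower. Over all 13496 tested genes, 5.85% were called in either direction and 2.69% were called higher. At an unadjusted p under 0.05 in edgeR, 2 members were higher and 1 was lower, beside 22.5% of all tested genes in either direction. DESeq2 called 2 members higher and 0 lower, beside 12% of all genes called and 5.81% called higher, and limma-voom 1 higher and 0 lower, beside 4.93% called and 1.89% called higher. Log2 fold changes, fl/fl over wt/wt, ran from −0.63 for Cd9 to 1.71 for Cd63, with a median of 0.14 over the 8 members and 0.021 over all tested genes. The libraries of the genotypes did not overlap in 6 of the 8 members, beside 54.4% of all tested genes; 3 members were separated higher in fl/fl (28.1% of all genes) and 3 lower (26.3%), so that this count stands little above the background.

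**Figure D1:**
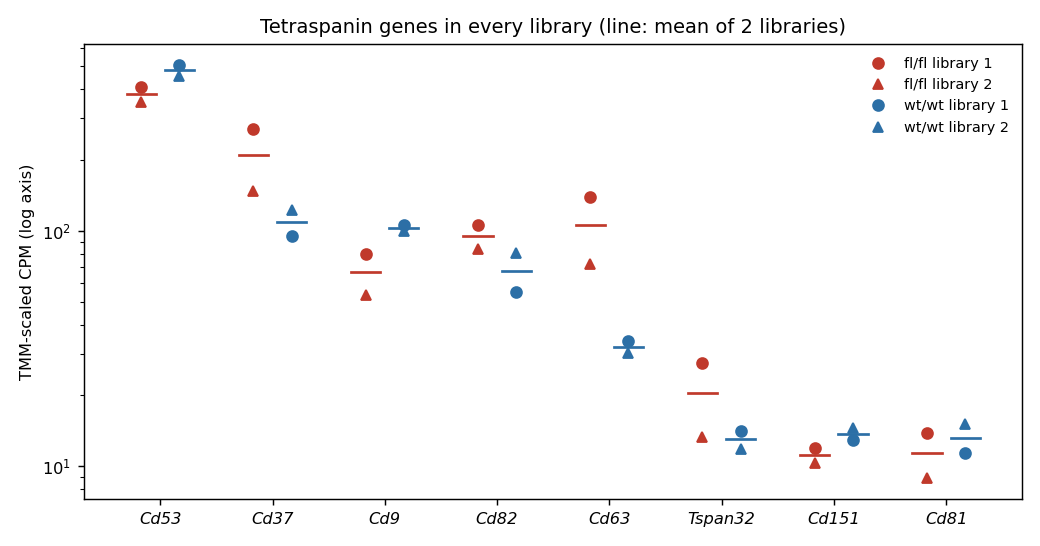
TMM-scaled CPM (log axis) of each of the 8 genes in each library, with fl/fl in red left of wt/wt in blue; circles are library 1, triangles library 2, and lines the mean of 2 libraries. Cd63 lies at 139 and 72.5 CPM in fl/fl, above 34.1 and 30.3 CPM in wt/wt, and the fl/fl circle lies above the fl/fl triangle for all 8 genes.

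Cd63 (ENSMUSG00000025351; GRCm38 chromosome 10, 128900989 to 128912822, plus strand) encodes the tetraspanin of late endosomes, lysosomes and multivesicular bodies, and in human neutrophils its protein marks the membrane of primary granules. It held 139 and 72.5 CPM in fl/fl libraries 1 and 2, from 2386 and 1270 counts, against 34.1 and 30.3 CPM in the wt/wt libraries, from 759 and 823 counts. Both fl/fl libraries were above both wt/wt libraries, and fl/fl 1 stood 1.92-fold above fl/fl 2. The means were 106 ± 47.0 CPM in fl/fl and 32.2 ± 2.67 CPM in wt/wt (SD, n = 2 each). Cd63 had a log2 fold change of 1.71 ± 0.31 (SE; edgeR's quasi-likelihood test gave an adjusted p = 0.0286), with 1.13 when fl/fl 1 was left out and 2.12 when fl/fl 2 was. The call was lost in edgeR without wt/wt 1 or wt/wt 2 (adjusted p = 0.232 and 0.163), where edgeR called 0 of all genes, with 1576 and 2333 at an unadjusted p under 0.05; DESeq2 on the same 3 libraries gave adjusted p = 0.00261 and 0.00746 for Cd63, and the alternatives together spanned 1.1e-13 to 0.232. A processed pseudogene, Cd63-ps, matches a Cd63 transcript at 98% over 858 bases and held 16 and 17 counts in fl/fl, against 5 and 10 counts in wt/wt. How reads that fit both copies were counted is not given in the sources used here, which leaves the Cd63 level uncertain.

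Markers of granulocytes moved with Cd63. Of 10 granulocyte precursor markers, 10 rose in edgeR and DESeq2 and 8 in limma-voom, beside 2.69% of all tested genes called higher in edgeR. Their median log2 fold change was 3.66 (3.04 without fl/fl 1). Their summed level was 12620 and 6640 CPM in fl/fl, against 1065 and 1088 CPM in wt/wt. Ngp and Ltf, genes of neutrophil secondary granules, had the highest CPM of them. Of 10 mature neutrophil markers, 6 rose and 4 did not pass in edgeR, while DESeq2 called 7 higher and limma-voom 6. Their median log2 fold change was 2.53 (1.66 without fl/fl 1). The sums were 27120 and 11380 CPM in fl/fl, against 2450 and 3217 CPM in wt/wt. S100a9 and S100a8, the calprotectin subunits, were the highest in CPM. As with Cd63, both sums were higher in the first fl/fl library, and no marker of either list was at 0 in every library. Basophils also carry CD63 on their granules: of 8 basophil and mast cell markers, Hdc, the histamine-forming enzyme that immature myeloid cells of mice also express, rose and 7 did not pass, with sums of 537 and 376 CPM in fl/fl, against 106 and 164 CPM in wt/wt; Hdc and Gata2 had the highest CPM of that list. Its median log2 fold change was 1.99 (1.13 without fl/fl 1). At an unadjusted p under 0.05 in edgeR, 5 of the 8 were higher, beside 22.5% of all tested genes in either direction. DESeq2 called 3 higher (5.81% of all genes called higher), and edgeR called 4 without the filter on low counts (9.2% of all genes called). The part of these cell types in the Cd63 result was not tested. In bulk RNA, more cells of a type and more RNA per cell cannot be told apart.

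The genes whose pattern over the 4 libraries was most like that of Cd63, by the root mean square difference of centred log2 CPM among 6748 genes of at least median expression, were Tarm1, a receptor of granulocytes and macrophages (0.0465), C1rl (0.0685) and Nxn (0.0788). Tarm1 held 69.6 and 38.9 CPM in fl/fl, against 18.0 and 16.5 CPM in wt/wt. In all, 41 genes lay within 0.25. Whether that is more or fewer than around other genes was not tested, and likeness over 4 libraries only describes these values.

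Cd53 and Cd37 encode the tetraspanins that are most restricted to leukocytes. CD53 is carried by nearly all kinds of leukocyte, and in mice CD37 holds the fungal receptor dectin-1 at the surface and restrains interleukin-6 production. Cd53 (ENSMUSG00000040747; chromosome 3, 106759921 to 106790149, minus strand) held 406 and 352 CPM in fl/fl, against 508 and 456 CPM in wt/wt. The fl/fl libraries lay below the wt/wt libraries, but the difference did not pass (log2 fold change −0.35 ± 0.17, SE; adjusted p = 0.289, edgeR), with −0.49 to −0.24 when single libraries were left out. Cd37 (ENSMUSG00000030798; chromosome 7, 45233632 to 45239115, minus strand) held 271 and 148 CPM in fl/fl, against 95.1 and 122 CPM in wt/wt. The genotypes did not overlap, yet fl/fl 2 stood close to wt/wt 2. Cd37 had a difference of 0.94 ± 0.30 on the log2 scale without passing (SE; edgeR, adjusted p = 0.119), or 0.41 when fl/fl 1 was left out and 1.32 when fl/fl 2 was. Cd37 passed in DESeq2 (adjusted p = 0.0324), without fl/fl 2 (0.0046, edgeR), without the filter on low counts (8.51e-05, edgeR) and in DESeq2 without fl/fl 2 (8.36e-06), in a range up to 0.633 over all alternatives. B cells are rich in CD37. The sums of 6 B cell markers were 6.23 and 11.8 CPM in fl/fl, against 6.92 and 10.6 CPM in wt/wt. These sums were mostly Cd79b and then Cd79a. Of 3 tested markers, 0 were called in edgeR, DESeq2 or limma-voom, and 0 were at an unadjusted p under 0.05. The part of B cells in the Cd37 values was not tested.

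**Figure D2:**
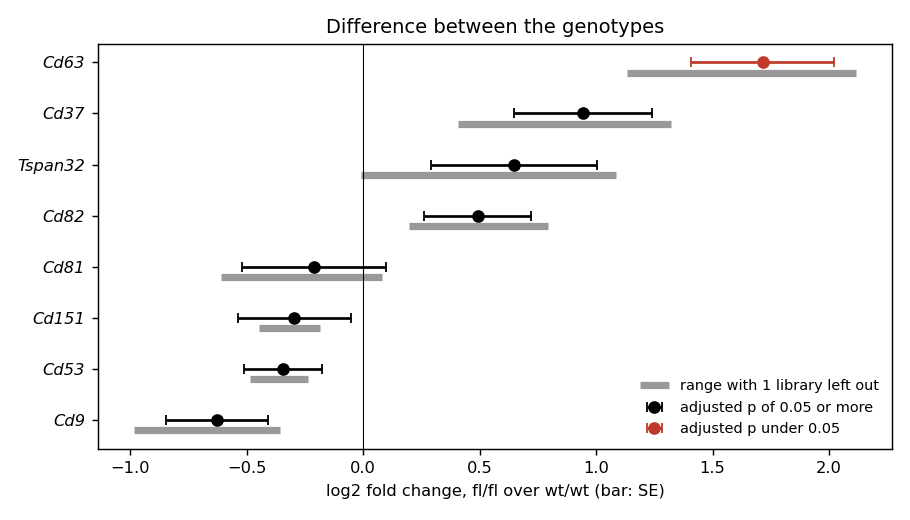
Log2 fold change, fl/fl over wt/wt, of each gene (points; bars are the SE) with the range over the 4 fits that leave out 1 library (grey bars); red marks an adjusted p under 0.05 in edgeR. Cd63 at 1.71 passed, and the grey ranges of Cd81 and Tspan32 reach across 0.

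Cd9 and Cd81 encode closely related proteins that bind integrins and the EWI proteins; in mice they restrain the fusion of macrophages. Cd9 (ENSMUSG00000030342; chromosome 6, 125460266 to 125494791, minus strand) held 79.9 and 53.4 CPM in fl/fl, against 106 and 100.3 CPM in wt/wt. Both fl/fl libraries were lower, by the largest negative difference among the 8 members, but not past the threshold (log2 fold change −0.63 ± 0.22, SE; adjusted p = 0.148, edgeR). It was −0.36 without fl/fl 2 (adjusted p = 0.315, edgeR). Cd9 passed without fl/fl 1 (−0.98; adjusted p = 0.0228, edgeR), in DESeq2 without fl/fl 1 (0.0036) and without the filter on low counts (0.0231, edgeR), in a range up to 0.877 over all alternatives. Platelets carry much CD9: the sums of 8 platelet markers were 8.15 and 13.7 CPM in fl/fl, against 14.6 and 18.0 CPM in wt/wt. Itga2b and Pf4 were the highest in CPM, and Gp1bb was at 0 in every library. Of 4 tested markers, Pf4 was called lower in edgeR and 3 did not pass, beside 3.16% of all tested genes called lower. The part of platelets in the Cd9 values was not tested. Cd81 (ENSMUSG00000037706; chromosome 7, 143052739 to 143067934, plus strand) held 13.9 and 8.90 CPM in fl/fl, against 11.4 and 15.1 CPM in wt/wt. The genotypes overlapped in Cd81 (log2 fold change −0.21 ± 0.31, SE; adjusted p = 0.756, edgeR), and its sign turned to 0.079 without fl/fl 2 and 0.0088 without wt/wt 2.

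Cd82 and Cd151 are integrin-associated members, the first known as the metastasis suppressor KAI1 in tumour cells and the second as a partner of laminin-binding integrins. Cd82 (ENSMUSG00000027215; chromosome 2, 93419111 to 93463140, minus strand) held 106 and 84.1 CPM in fl/fl, against 55.1 and 80.3 CPM in wt/wt. The fl/fl libraries were higher, with fl/fl 2 just above wt/wt 2 (log2 fold change 0.49 ± 0.23, SE; adjusted p = 0.269, edgeR). The value was 0.27 without fl/fl 1, 0.20 without wt/wt 1 and 0.79 without wt/wt 2. Cd151 (ENSMUSG00000025510; chromosome 7, 141467392 to 141471473, plus strand) held 12.0 and 10.3 CPM in fl/fl, against 12.9 and 14.5 CPM in wt/wt (log2 fold change −0.30 ± 0.24, SE; adjusted p = 0.537, edgeR). Its fl/fl libraries lay just below those of wt/wt, within a narrow span of levels, and the value ran from −0.45 without fl/fl 1 to −0.19 without fl/fl 2. Neither gene passed under any of the 15 alternatives.

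Tspan32 (ENSMUSG00000000244; chromosome 7, 143005046 to 143019644, plus strand), also known as Tssc6 or Phemx, is a tetraspanin of blood-forming cells that restrains T cell responses in mice; it lies 33094 bases before Cd81. It held 27.5 and 13.3 CPM in fl/fl, against 14.2 and 11.9 CPM in wt/wt. Fl/fl 1 stood 2.07-fold above fl/fl 2, the widest gap within a genotype among the 8 members, and fl/fl 2 lay between the wt/wt libraries. Tspan32 had a log2 fold change of 0.65 ± 0.36 (SE; edgeR, adjusted p = 0.349), which was −0.0085 when fl/fl 1 was left out. When fl/fl 2 was left out it was 1.09 and passed (adjusted p = 0.0222, edgeR). Its positive value rested on fl/fl 1, the library with the higher granulocyte sums. The fl/fl libraries also differed in sex, and the part of granulocytes or of sex in the Tspan32 value was not tested.

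Under the alternatives, including the DESeq2 fits added after seeing the data, calls among the 8 members stayed few. Cd63 was among them in 13 of 15. It was the only member called with RLE size factors (5.72% of all tested genes called), with library size alone (7.46%), at a CPM of at least 5 in 2 libraries (8.86%) and with the replicate number as a block (9% of all genes). Without the filter on low counts Cd63, Cd37 and Cd9 were called, beside 9.2% of all genes. Cd63 and Cd9 were called without fl/fl 1, in edgeR (6.56% of all genes) and in DESeq2 (6.38%). Without fl/fl 2, edgeR called Cd63, Cd37 and Tspan32 (10% of all genes) and DESeq2 called Cd63 and Cd37 (9.1%). DESeq2 without wt/wt 1 or wt/wt 2 called Cd63 alone, beside 3.28% and 5.27% of all genes, and edgeR called 0 members and 0% of all genes in both cases.

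All 8 members stood higher in fl/fl 1 than fl/fl 2, by 1.15-fold for Cd53 to 2.07-fold for Tspan32. Of all tested genes, 50.1% stood higher in fl/fl 1, and the pattern of the 8 was noticed after the values were seen. The fl/fl libraries were of different sex, which cannot be told apart here from other differences between them. The summed level of the 8 was 1055 and 743 CPM in fl/fl, against 836 and 831 CPM in wt/wt. The wt/wt libraries differed by at most 1.46-fold, in Cd82. Exons of 5 members overlap a gene on the other strand, by 10.7% of exonic length in Cd9, 7.04% in Cd151, 4.35% in Tspan32, 3.61% in Cd81 and 0.369% in Cd37, and the strand setting of the counting is not given in the sources used here. The genes on the other strand held at most 35 counts in any library.

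Within a library, shares of the summed counts of the 8 genes do not depend on the scaling between libraries. Cd53 took 38.5% (95% Wilson interval 37.8 to 39.2) and 47.4% (46.6 to 48.3) in the fl/fl libraries, against 60.7% (60.0 to 61.4) and 54.9% (54.2 to 55.5) in the wt/wt libraries. Cd63 took 13.2% (12.7 to 13.7) and 9.75% (9.26 to 10.3) of the fl/fl counts, against 4.08% (3.80 to 4.37) and 3.65% (3.41 to 3.90) of the wt/wt counts. Cd37 took 25.6% (25.0 to 26.3) and 20.0% (19.3 to 20.7) of the fl/fl counts, against 11.4% (10.9 to 11.8) and 14.7% (14.3 to 15.2) of the wt/wt counts. In these shares the fl/fl libraries held less Cd53 and more Cd63 and Cd37 than either wt/wt library, and the intervals cover counting error only. Shares of the same sum are tied, so that a higher share of some genes lowers that of others. In CPM, Cd53 differed by −0.35 on the log2 scale without passing (adjusted p = 0.289, edgeR). Cd9 took 7.57% (7.20 to 7.97) and 7.19% (6.76 to 7.64) of the fl/fl counts, against 12.6% (12.2 to 13.1) and 12.1% (11.7 to 12.5) of the wt/wt counts, and within each genotype its share was nearly equal. Cd82, Cd81, Cd151 and Tspan32 took 1.14% to 11.3% in each fl/fl library and 1.36% to 9.67% in each wt/wt library.

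**Figure D3:**
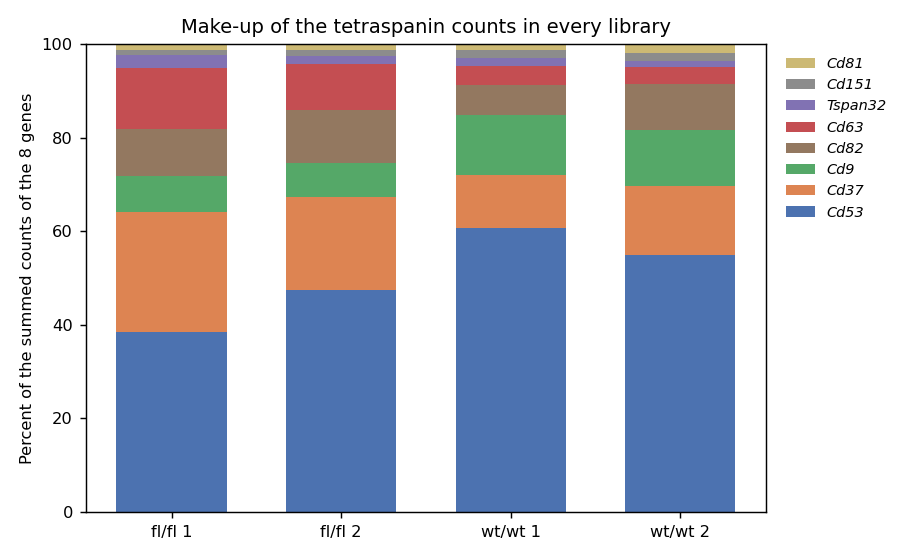
Percent of the summed counts of the 8 genes taken by each gene, stacked to 100%, in the fl/fl libraries left of the wt/wt libraries. Cd53 takes 38.5% and 47.4% of the fl/fl bars and 60.7% and 54.9% of the wt/wt bars, and Cd63 13.2% and 9.75% of the fl/fl bars and 4.08% and 3.65% of the wt/wt bars.

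Levels of different genes compare only per length, here as CPM per kilobase of the union of exons. Cd53 led in both genotypes, with 217.7 ± 21.8 in fl/fl and 276.5 ± 20.97 CPM per kilobase in wt/wt (SD, n = 2 each), at percentiles 97.9 to 98.6 of all tested genes. In fl/fl the order after Cd53 was Cd37 (59.5 ± 24.6), Cd9 (32.6 ± 9.16), Cd82 (31.7 ± 5.23), Cd63 (28.7 ± 12.8), Cd151 (4.07 ± 0.43), Cd81 (3.96 ± 1.23) and Tspan32 (3.28 ± 1.62 CPM per kilobase). Cd9, Cd82 and Cd63 overlapped with their neighbours in that order, as did Cd151, Cd81 and Tspan32. In wt/wt it was Cd9 (50.4 ± 1.86), Cd37 (30.9 ± 5.50), Cd82 (22.5 ± 5.94), Cd63 (8.75 ± 0.73), Cd151 (4.999 ± 0.42), Cd81 (4.59 ± 0.91) and Tspan32 (2.09 ± 0.26 CPM per kilobase), where the libraries of neighbours overlapped only for Cd151 and Cd81. Among all tested genes Cd63 stood at percentiles 89.5 and 82.0 per length in the fl/fl libraries, against 68.4 and 65.7 in the wt/wt libraries. With the longest transcript as length, Cd81 stood above Cd151 in both genotypes and the other places stayed.

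The other tetraspanin genes listed gave no call in edgeR on the 4 libraries with the filter on low counts. Of 23 listed, 11 passed the filter on low counts, and 0 were higher and 0 lower in edgeR, with a median log2 fold change of 0.19. At an unadjusted p under 0.05 in edgeR, 2 were higher and 2 lower, beside 22.5% of all tested genes in either direction. DESeq2 called 1 higher and 0 lower, and limma-voom 0 and 0. Without the filter on low counts, edgeR called 2 of 19 higher, Tspan13 among them, and 0 lower, beside 9.2% of all genes called. Tspan14, a partner of the protease ADAM10, had the highest CPM, at 195 and 223 CPM in fl/fl, against 160 and 207 CPM in wt/wt. Tspan13 came next, at 87.9 and 152 CPM in fl/fl, against 64.95 and 67.27 CPM in wt/wt (log2 fold change 0.86 ± 0.26, SE; adjusted p = 0.111, edgeR). Tspan13 was the 1 called in DESeq2 (adjusted p = 0.0344), passed in edgeR without fl/fl 1 (adjusted p = 0.00646), and unlike the 8 members its higher fl/fl level was in fl/fl 2. Tspan10, Tspan11, Upk1b and Prph2 were at 0 counts in every library, where 3 counts correspond to 0.111 to 0.175 CPM.

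Among 15 tested surface partners of tetraspanins, 2 rose, 2 fell and 11 did not pass in edgeR, with a median log2 fold change of −0.22. Over all tested genes, 2.69% were called higher and 3.16% lower. At an unadjusted p under 0.05 in edgeR, 2 were higher and 5 lower, beside 22.5% of all tested genes in either direction. DESeq2 called 2 higher and 3 lower, beside 12% of all genes called, and limma-voom 2 higher and 1 lower, beside 4.93%. Ifitm1, of a family of antiviral membrane proteins that associate with CD81, rose: it held 430 and 161 CPM in fl/fl, against 36.4 and 53.3 CPM in wt/wt (log2 fold change 2.72 ± 0.46, SE; adjusted p = 0.0252, edgeR; 1.81 without fl/fl 1). Granulocyte markers were higher in the same libraries, and their part in the Ifitm1 result was not tested. Itga6, the laminin-binding integrin chain that pairs with CD151, fell: it held 14.8 and 5.48 CPM in fl/fl, against 57.9 and 57.8 CPM in wt/wt (−2.51 ± 0.42, SE; adjusted p = 0.0252, edgeR; −3.44 without fl/fl 1). Timp1, a metalloproteinase inhibitor and ligand of CD63, had 2 and 3 counts in the fl/fl libraries, against 54 and 194 in the wt/wt libraries. Pooled within genotype, 5 and 248 counts gave a ratio of 0.0287 after scaling for library size (exact 95% counting interval 0.00924 to 0.0679). That interval leaves out the spread between libraries. The adjusted p was 0.0223 in edgeR and 0.122 in limma-voom. The partners of highest CPM, Ptprc (CD45) and Ifitm3, did not pass, at 0.27 and 0.24 on the log2 scale (edgeR, adjusted p = 0.514 and 0.446).

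Of the genes listed for the compartments where CD63 resides, 1 passed in each of 2 lists, beside 5.85% of all tested genes. Of 11 tested genes of vesicle sorting and release, 1 rose and 0 fell in edgeR, with a median log2 fold change of −0.011. At an unadjusted p under 0.05 in edgeR, 1 was higher and 1 lower, beside 22.5% of all tested genes in either direction. DESeq2 and limma-voom called 0 lower. The gene that rose was Rab27a, a small GTPase that docks secretory granules and exosome-bearing endosomes, at 148 and 106 CPM in fl/fl, against 56.1 and 62.1 CPM in wt/wt (1.10 ± 0.20, SE; adjusted p = 0.0306, edgeR). Sdcbp, the exosome adaptor syntenin, held 643 and 498 CPM in fl/fl, against 791 and 831 CPM in wt/wt (adjusted p = 0.169, edgeR), and Chmp4b had a log2 fold change of −0.03. Of 10 lysosomal membrane genes, DESeq2 called 0 higher and 3 lower, beside 12% of all genes called. Calls in limma-voom were 0 higher and 1 lower, beside 4.93% of all genes. At an unadjusted p under 0.05 in edgeR, 0 were higher and 3 lower, beside 22.5% of all tested genes in either direction. Past the adjusted threshold in edgeR, 0 rose and 1 fell, with a median log2 fold change of −0.14. The gene that fell was Slc11a1, the phagosome metal transporter NRAMP, at 225 and 167 CPM in fl/fl, against 389 and 373 CPM in wt/wt (−0.96 ± 0.19, SE; adjusted p = 0.0381, edgeR). Lamp1 and Lamp2, the main glycoproteins of lysosomes, stood at 0.065 and 0.11 on the log2 scale (edgeR, adjusted p = 0.878 and 0.76). With either wt/wt library left out, none of these partner, vesicle or lysosomal genes was called in edgeR, where 0 genes passed in all. DESeq2 lost Rab27a without wt/wt 1 (adjusted p = 0.136), Slc11a1 without wt/wt 1 or wt/wt 2 (0.136 and 0.0574) and Timp1 without wt/wt 2 (0.247), whose log2 fold change was then −4.01 in edgeR.

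**Figure D4:**
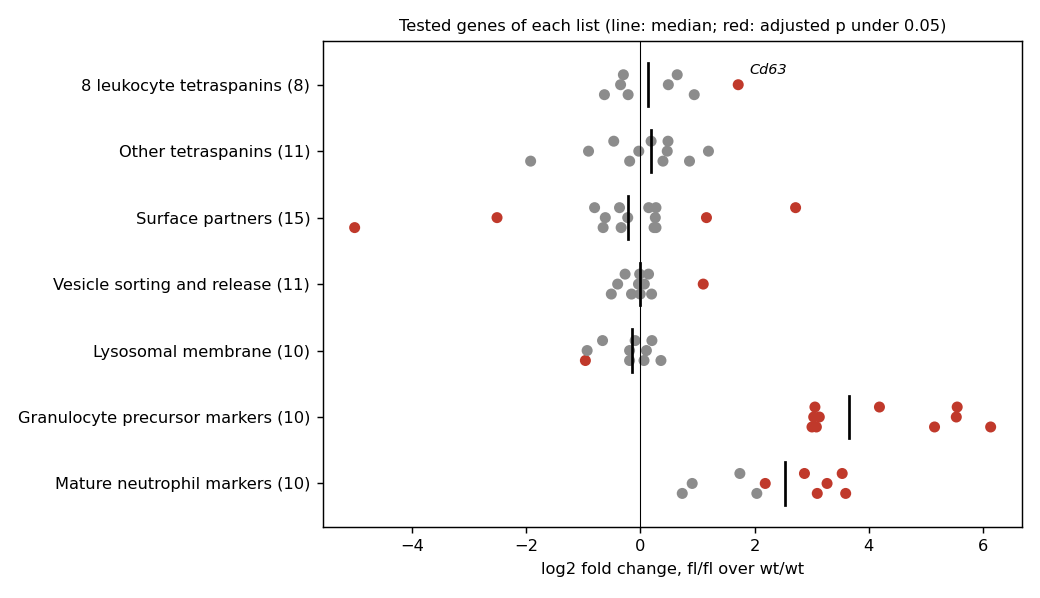
Log2 fold change, fl/fl over wt/wt, of the tested genes of each list, with the number of tested genes in parentheses; black lines are medians and red points have an adjusted p under 0.05 in edgeR. The median of the 8 leukocyte tetraspanins is 0.14, with Cd63 apart at 1.71, beside medians of 3.66 and 2.53 for the granulocyte precursor and mature neutrophil markers.

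Of 6 tested Kupffer cell and macrophage markers, 3 fell and 3 did not pass, beside 3.16% of all tested genes called lower. Those that fell were the C1q chains C1qa, C1qb and C1qc. Adgre1 did not pass (log2 fold change −0.24; adjusted p = 0.406, edgeR), and 2 of the 6 had a positive log2 fold change. The sums over all 10 were 298 and 212 CPM in fl/fl, against 914 and 903 CPM in wt/wt, with C1qb and Adgre1 the highest in CPM. The Kupffer cell markers Clec4f, Vsig4 and Timd4 were below 1 CPM in every library. Of 8 monocyte markers, 1 rose, 1 fell (Fn1) and 6 did not pass, beside 2.69% of all tested genes called higher and 3.16% lower. Their sums were 16700 and 10140 CPM in fl/fl, against 12070 and 9721 CPM in wt/wt, with Fn1 and Chil3 the highest in CPM. Lists of T and NK cells, dendritic cells, eosinophils, endothelial cells, stellate cells, hepatocytes and erythroid cells summed to 3.43 to 95.3 CPM per library. For T and NK cells the wt/wt sums were 4.81 and 4.57 CPM, while those of fl/fl reached 33.4 and 27.3 CPM. Of 5 tested T and NK cell markers, Nkg7, Gzma and Prf1 rose in edgeR, beside 2.69% of all tested genes called higher. Erythroid sums were 20.8 and 20.4 CPM for wt/wt and 36.7 and 95.3 CPM for fl/fl, with 0 of 4 tested markers called. Of 4 tested eosinophil markers Prg2 rose, from 0 counts in both wt/wt libraries to 17 and 47 in fl/fl 1 and 2. Dendritic, endothelial, stellate and hepatocyte lists gave 0 calls in edgeR. The part of these cells in the tetraspanin values was not tested.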

How the data were processed

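Whole-number read counts of each Ensembl gene in the 4 libraries were deposited by the authors in 1 table. The submitters' processing notes name FastQC (0.11.5), Trimmomatic (0.33), STAR (2.5.0) and the build GRCm38; how reads were counted, with which strand setting and annotation, is not given in the sources used here. Gene symbols, coordinates and lengths came from GENCODE M21 (GRCm38), which held 55227 of 55487 identifiers, and promoter windows from RefSeq (GRCm38.p6).

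Genotypes were compared with edgeR 4.0.16 (R 4.3.3): filterByExpr at a minimum count of 10, TMM scaling, and the quasi-likelihood test with genotype as the only term. Two-sided p-values were adjusted by Benjamini-Hochberg over 13496 genes, with a threshold of 0.05. Fold changes divide fl/fl by wt/wt (prior count 0.125), and each SE was taken as |log2 fold change| divided by √F. An exact permutation test of 2 against 2 libraries cannot go below p = 0.333. The steps were tested on simulated data. Depth sets a floor of 3 counts per library where a gene has 0.

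The members and lists were chosen with earlier results of these data known. Named were the 8 members, Il10ra, list genes past the threshold with up to 2 more of highest CPM, the 3 genes most like Cd63, and the 2 most expressed genes of the marker lists set beside a result. Alternatives were other scalings (RLE, library size only), no filter, CPM of at least 5 in 2 libraries, DESeq2 1.42.0, limma-voom (limma 3.58.1), the replicate number as a block, each library left out, and the longest transcript as length. DESeq2 with a library left out was added after seeing the data. Some genes of the lists are counted in them but not reported here by name.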

Additional observations from a re-analysis of the deposited data

How the results depend on the processing

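Against 790 genes called over all tested genes, 2088 were called with no filter on low counts, 1618 by DESeq2, 1215 with the replicate number as a block, and 0 to 1477 with 1 library left out in edgeR; DESeq2 without fl/fl 2 and without wt/wt 1 called 1342 and 464. Among the 8 tetraspanins, against 1 call, there were 3 without the filter, 2 in DESeq2, 0 to 3 with a library left out in edgeR, and 2 in DESeq2 without fl/fl 1 and also without fl/fl 2. Cd63 kept its direction in all 15 alternatives and its call in 13, a tally that includes the DESeq2 fits added after seeing the data. The Cd81 log2 fold change ran from −0.61 to 0.079 with a library left out in edgeR, was 0.0088 without wt/wt 2, and was 0.085 in DESeq2 without fl/fl 2. That of Tspan32 ran from −0.0085 to 1.09, and was −0.00025 in DESeq2 without fl/fl 1. The causes were not tested. Fits that leave out a library keep 1 of its genotype, whose spread is taken from the other genotype. With the longest transcript as length, mean levels over the 4 libraries were 69.1 for Cd9, 7.66 for Cd81, 44.6 for Cd82, 6.67 for Cd151 and 3.90 CPM per kilobase for Tspan32, against 41.5, 4.28, 27.1, 4.54 and 2.68. The labels give libraries of the same replicate number only that number in common, and the main fit used no pairing. Their deviations from the group means correlated at 0.0215. With 2 libraries a genotype, that value cannot show whether they shared a batch. With the replicate block 1 tetraspanin was called, Cd63 (adjusted p = 0.00261, edgeR). With 2 libraries a genotype, differences as small as those of Cd53 or Cd151 could not be told from the spread between libraries.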
